A study of Hansenula anomala with 15 samples.

Results

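Transcripts of Wickerhamomyces anomalus, a yeast labelled here under the organism name Hansenula anomala, were compared between 16 h and 0 h of an apricot fermentation. The comparison rests on 6 of the 15 libraries of a time series: 3 biological replicates at 16 h and 3 at 0 h, each made from polyadenylated RNA of whole fermentation broth. The other libraries, from 32, 48 and 64 h, entered the statistical model only to share one estimate of the spread, and are otherwise given as levels beside the comparison. The labels give no strain, inoculum or medium beyond this, and no group other than the 0 h samples serves as a control. Of 6571 genes counted, 6327 passed the filter on low counts and were tested. They were described through their KOG, KEGG and GO annotation and through 45 gene lists, in which the most abundant gene is the one with most counts, not corrected for length.

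In the well-studied relative Saccharomyces cerevisiae, a cell entering fresh sugar-rich medium takes up hexoses through transporters of the major facilitator superfamily and breaks them down by glycolysis to ethanol. Fast growth draws on ribosomal proteins, amino acid and nucleotide synthesis, histones and the mitotic machinery, and a cell short of a preferred nitrogen source draws on permeases, vacuolar proteases and autophagy. W. anomalus is known as an ester-forming yeast of fruit and wine fermentations, and its alcohols, aldehydes and esters derive from pyruvate, acetyl-CoA and amino acids. Roles given below are those known from S. cerevisiae for the gene of that name, and the names themselves rest on homology.

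The libraries held 35.0, 24.4 and 38.6 M counts at 16 h and 38.6, 40.1 and 39.2 M counts at 0 h. Levels are given as scaled CPM, CPM (a gene's counts relative to its library size) after TMM scaling, a correction for libraries in which a few genes take much of the reads. Changes are log2 fold changes of 16 h over 0 h from edgeR's quasi-likelihood test with Benjamini-Hochberg adjustment, and only genes with an adjusted p under 0.05 are said to have risen or fallen. Replicate 2 of 16 h stood apart: across 4383 genes its rank correlation with the other 16 h libraries was 0.734 and 0.695, against 0.957 between those, and it differed from their mean by more than 2-fold at 39.3% of genes. Among the 0 h libraries replicate 3 differed from its mates by gene length (rank correlation of its log2 ratio with length -0.493, against 0.441 and 0.43 for replicates 1 and 2), and by more than 2-fold at 15.4% of genes. Their part in the results was not tested, and values without a library are given beside results that moved when it was left out. Counts of 1 or 2 members of a list often depended on a single library.

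At 16 h, 1432 genes had risen and 1126 had fallen, which is 22.6% and 17.8% of the genes tested (40.4% called in all). Of the risen genes 1324 changed by at least 2-fold and 111 by at least 16-fold, and of the fallen genes 1026 and 67. The 3 values at 16 h did not overlap the 3 values at 0 h for 1295 risen genes (90.4%) and 1091 fallen genes (96.9%), where 49.2% of all tested genes showed no overlap. Within the risen genes 16 h replicate 2 was the highest 16 h library for 59.8% and the lowest for 29.1%. Genes with a symbol or KOG entry made up 64.2% of the risen and 82.9% of the fallen genes, against 75.6% of all tested. Leaving out 16 h replicate 2 gave 1263 risen and 1135 fallen genes, and leaving out 0 h replicate 3 gave 1331 and 1065. When library sizes replaced TMM factors, the median of all genes was -0.60, against 0.09 on the log2 scale with TMM, a shift of -0.69, and the split of calls became 620 risen to 1753 fallen (26.1% risen, against 56%). Directions of gene groups are therefore given with both medians. In bulk RNA of whole broth, fewer cells of a kind and less RNA per cell cannot be told apart.

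**Figure D1:**
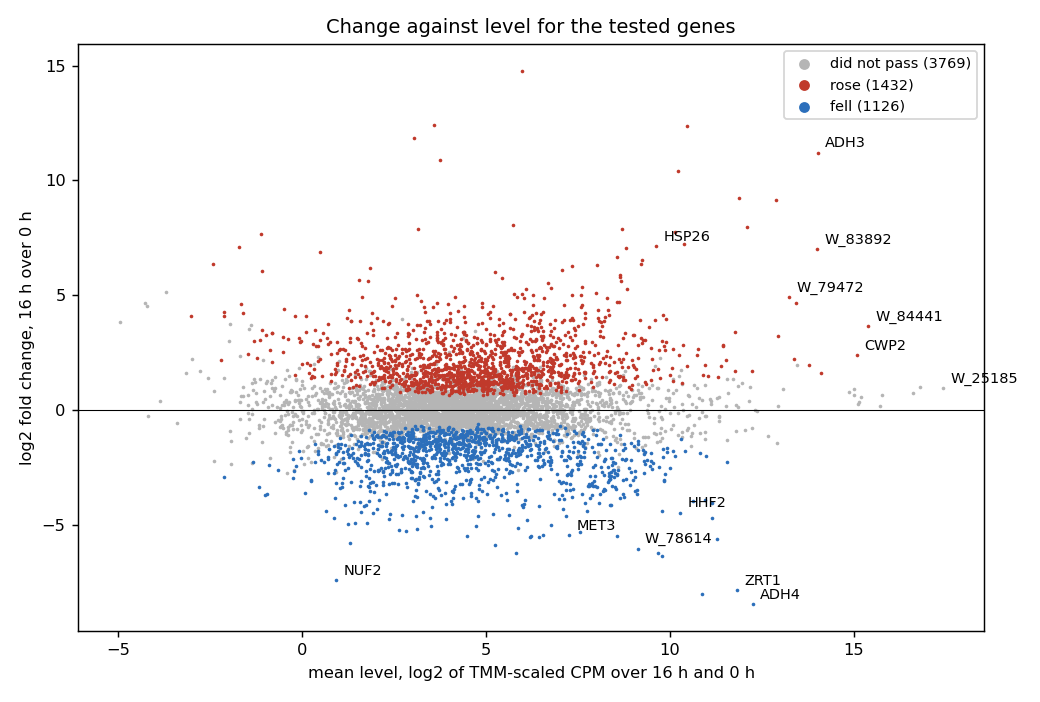
Log2 fold change of 16 h over 0 h (vertical axis) against the mean level of both groups, as log2 of scaled CPM (horizontal axis), for the 6327 tested genes, with W_ standing for WICANDRAFT_. The 1432 risen genes and 1126 fallen genes lie above and below 0, and the gene with most counts, WICANDRAFT_25185, lies among those that did not pass.

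Risen and fallen genes were spread unevenly over the KOG function classes. Genes for secondary metabolite enzymes (46 of 112 rose, 14 fell), carbohydrate transport and metabolism (78 of 219 rose, 25 fell) and lipid transport and metabolism (53 of 178 rose, 21 fell) held more risen genes than the 22.6% of all genes. Chromatin held the highest share of fallen genes, with 40 of 87 fallen and 6 risen (3 risen when 0 h replicate 1 or 16 h replicate 2 was left out). In translation and ribosome structure 122 of 336 genes fell and 27 rose, and in cell cycle and division 51 of 148 fell and 11 rose. Replication and repair (53 of 160 fell), cytoskeleton (29 of 87), nuclear structure (9 of 24) and the cell wall and membrane class (13 of 44) also lay above the 17.8% of all genes. In amino acid metabolism 79 of 258 genes rose (30.6%) and 54 fell (20.9%, near the share of all genes). Nucleotide metabolism lay above all genes on both sides, with 20 of 75 genes risen (26.7%) and 24 fallen (32%). Among the 2325 genes with no KOG entry 644 rose and 341 fell. The class medians ran from 0.67 for secondary metabolites to -0.94 for chromatin. With library size scaling they were 0.00 and -1.63, and those of the carbohydrate and lipid classes changed sign, to -0.02 and -0.34.

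**Figure D2:**
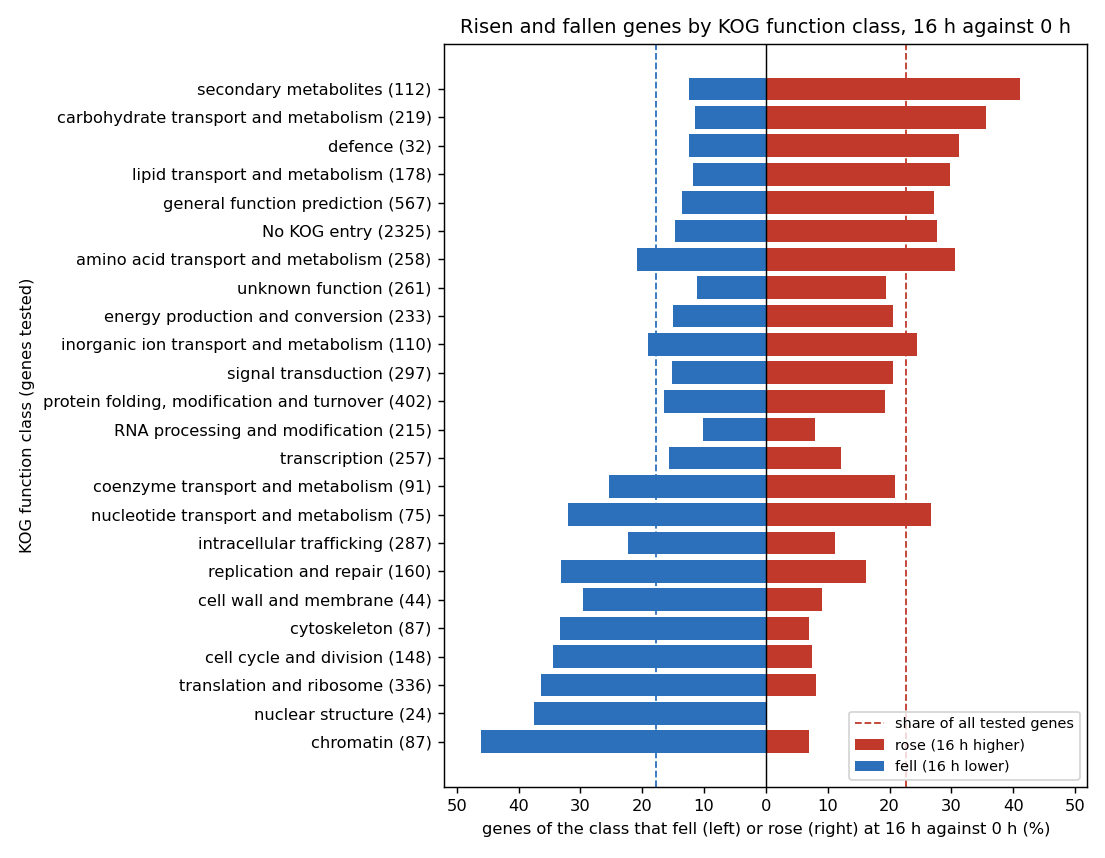
Share of tested genes that fell (bars to the left) and rose (bars to the right) at 16 h against 0 h in each KOG function class, ordered by the share risen minus the share fallen, with the number tested in brackets. The dashed lines mark 17.8% fallen and 22.6% risen among all tested genes: chromatin reaches 46% fallen and secondary metabolites 41.1% risen.

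Genes of sugar breakdown took a large share of counts at both times, and 13.3% of the list rose, against 22.6% of all genes. Of 15 glycolytic and pyruvate decarboxylase genes 2 rose and 0 fell (median log2 fold change 0.78, and 0.12 with library size scaling; 1 rose with 16 h replicate 2 left out), and the list took 40.1%, 27.5% and 38.5% of all counts at 16 h, against 33.2%, 29.8% and 34.1% at 0 h (exact permutation test p = 0.5, two-sided). The gene with most counts, glyceraldehyde-3-phosphate dehydrogenase (WICANDRAFT_25185), did not pass (0.94, adjusted p = 0.343). Nor did PGK1, phosphoglycerate kinase (0.65, adjusted p = 0.521), FBA1, aldolase (0.20, adjusted p = 0.849), or the pyruvate kinase gene WICANDRAFT_88059 (0.93, adjusted p = 0.438). A hexokinase gene (WICANDRAFT_79472), whose enzyme phosphorylates glucose on entry, had 24182, 18664 and 13267 scaled CPM at 16 h, against 581, 496 and 765 scaled CPM at 0 h. It rose by 4.93 log2 units (SE 0.62, adjusted p = 4.05e-05). Its 16 h values lie above all 0 h values, as in 90.4% of risen genes. The second risen member, an enolase-family gene (WICANDRAFT_68381), rested on 16 h replicate 2, with 24.8, 209.6 and 18.6 scaled CPM at 16 h, against 14.2, 11.2 and 16.1 scaled CPM at 0 h. Without that library its change was 0.65 (adjusted p = 0.209).

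Transporters of the major facilitator superfamily, which carry sugars and many other small molecules, held many risen genes. Of 155 tested members 83 rose and 10 fell (median log2 fold change 1.24, and 0.58 with library size scaling), against 22.6% and 17.8% of all genes. With library size scaling 43 members rose and 20 fell. Their summed share of counts was 4.94%, 4.84% and 5.23% at 16 h, against 1.71%, 1.68% and 1.23% at 0 h (exact permutation test p = 0.1, two-sided, the smallest that 3 against 3 libraries allow). The most abundant member, WICANDRAFT_84441, had 109780.0, 65188 and 65276 scaled CPM at 16 h, against 6022, 4874 and 7926 scaled CPM at 0 h. It rose by 3.67 log2 units (SE 1.16, adjusted p = 0.0202), though the call ended when any 0 h library was left out. The change was then 3.64 (adjusted p = 0.0670) for replicate 1, 3.52 (adjusted p = 0.0746) for replicate 2 and 3.88 (adjusted p = 0.0516) for replicate 3. The permease gene WICANDRAFT_59630 had 629.9, 72.5 and 831 scaled CPM at 16 h, against 5.82, 5.75 and 7.45 scaled CPM at 0 h, and WICANDRAFT_81903 had 165, 7.62 and 146 scaled CPM at 16 h, against 3.43, 3.04 and 3.10 scaled CPM at 0 h. They rose by 6.33 and 5.05 log2 units (adjusted p = 8.61e-05 and 0.000668). No 16 h value of either reached down to 0 h, as in 90.4% of risen genes. WICANDRAFT_34521 was more even, with 616, 251 and 612 scaled CPM at 16 h, against 15.4, 15.9 and 11.8 scaled CPM at 0 h (5.10, adjusted p = 4.37e-05). A predicted transporter (WICANDRAFT_83369) showed the reverse, with 16.6, 194 and 15.3 scaled CPM at 16 h, against 1.37, 0.659 and 1.45 scaled CPM at 0 h. It rose by 6.03 log2 units (SE 0.91, adjusted p = 0.000159), and by 3.79 (adjusted p = 1.97e-05) without 16 h replicate 2.

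Genes of the opposite direction of carbon flow were low in counts at both times, yet several rose. Gluconeogenesis makes sugar from smaller carbon compounds, and the glyoxylate cycle lets acetate or fatty acid carbon enter it. Of 14 genes of both routes 7 rose (50%) and 0 fell, against 22.6% and 17.8% of all genes. The median log2 fold change was 0.98, and 0.34 with library size scaling. With either 64 h replicate 2 or 64 h replicate 3 left out, 1 gene fell. FBP1, fructose-1,6-bisphosphatase, had 265, 485 and 188 scaled CPM at 16 h, against 37.1, 27.3 and 69.8 scaled CPM at 0 h, and rose by 2.80 log2 units (SE 0.62, adjusted p = 0.00239). PCK1, phosphoenolpyruvate carboxykinase, had 7.55, 54.5 and 10.6 scaled CPM at 16 h, against 1.56, 1.59 and 1.81 scaled CPM at 0 h, and ICL1, isocitrate lyase, had 17.8, 295 and 22.3 scaled CPM at 16 h, against 1.73, 1.75 and 7.57 scaled CPM at 0 h. Both were far higher in 16 h replicate 2 than in its mates. All 16 h values exceeded all 0 h values, as in 90.4% of risen genes. PCK1 rose by 3.87 log2 units (SE 0.85, adjusted p = 0.00233), and without 16 h replicate 2 the change was 2.46 (adjusted p = 0.0116). ICL1 rose by 4.93 log2 units (SE 1.14, adjusted p = 0.00335), with 2.45 (adjusted p = 0.0242) without 16 h replicate 2 and 6.0 (adjusted p = 0.00524) without 0 h replicate 3. SIP4, a zinc-cluster activator of gluconeogenic genes, rose by 3.19 log2 units (adjusted p = 0.00351), or 1.42 (adjusted p = 0.0321) without 16 h replicate 2. The call ended with both that library and 0 h replicate 3 left out, at 1.18 (adjusted p = 0.0935).

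The shares of citrate cycle genes that rose (27.8%) and fell (11.1%) were near the 22.6% and 17.8% of all genes, and the respiratory chain held few called genes. Of 18 citrate cycle genes 5 rose and 2 fell (median log2 fold change 0.34, and -0.35 with library size scaling), and with library size scaling 2 rose and 5 fell. The risen citrate cycle genes were 2 when any of 0 h replicate 1, 0 h replicate 2 and 16 h replicate 1 was left out, and 3 when 32 h replicate 2 was. MDH1, mitochondrial malate dehydrogenase, had 7883, 3569.5 and 4693 scaled CPM at 16 h, against 1550.2, 1218 and 2138 scaled CPM at 0 h, and rose by 1.72 log2 units (SE 0.45, adjusted p = 0.00697). The citrate synthase gene CIT3 rose by 2.66 log2 units (adjusted p = 9.29e-05). LPD1, a shared subunit of mitochondrial dehydrogenase complexes, fell by 2.15 log2 units (adjusted p = 0.000957). Of 52 genes of the respiratory chain and ATP synthase 2 rose and 6 fell (median log2 fold change -0.13, and -0.86 with library size scaling), and without both 16 h replicate 2 and 0 h replicate 3 the counts were 8 and 2. The risen were 1 with any of 0 h replicate 1, 0 h replicate 2 and 16 h replicate 1 left out, 4 with 16 h replicate 2 left out and 5 with 0 h replicate 3 left out. TIM11, an ATP synthase subunit, had 33.6, 19.6 and 37.4 scaled CPM at 16 h, against 94.9, 93.5 and 223 scaled CPM at 0 h, and fell by 2.18 log2 units (SE 0.40, adjusted p = 0.000623). COX8, of cytochrome c oxidase, rose by 1.94 log2 units (adjusted p = 0.00715), and by 1.33 (adjusted p = 0.0446) without 16 h replicate 1.

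Few storage sugar and glycerol genes were called. Of 11 trehalose and glycogen genes 1 rose and 1 fell (9.09% each), and of 9 glycerol genes 2 rose (22.2%) and 1 fell (11.1%). Over all genes 22.6% rose and 17.8% fell. Among 11 trehalose and glycogen genes ATH1, the acid trehalase that splits trehalose outside the cell or in the vacuole, had 44.6, 38.3 and 39.5 scaled CPM at 16 h, against 6.99, 5.52 and 3.79 scaled CPM at 0 h, and rose by 2.90 log2 units (SE 0.29, adjusted p = 7.79e-06). UGP1, which makes the UDP-glucose that both storage sugars need, fell by 1.87 log2 units (adjusted p = 0.00975), with -1.53 (adjusted p = 0.0532) when both 16 h replicate 2 and 0 h replicate 3 were left out. The most abundant member of the list, the glycogen phosphorylase gene GPH1, had 4336 ± 606 scaled CPM at 16 h, against 1675 ± 238 scaled CPM at 0 h (SD, n = 3 each) and did not pass (1.37, adjusted p = 0.0517). Of 9 glycerol genes, GUT1, the kinase that opens glycerol use, had 200.2, 166 and 75 scaled CPM at 16 h, against 12, 12.1 and 11.7 scaled CPM at 0 h, and rose by 3.62 log2 units (SE 0.52, adjusted p = 9.82e-05). The other risen member, the aquaporin-family gene FPS1, rested on 16 h replicate 2, with 382, 1229 and 258 scaled CPM at 16 h, against 249, 230 and 217 scaled CPM at 0 h. FPS1 rose by 1.43 log2 units (adjusted p = 0.0423), and its change was 0.46 (adjusted p = 0.4) without that library. The call of FPS1 also ended when any of several other single libraries was left out. A glycerol-3-phosphate dehydrogenase gene (WICANDRAFT_30049), of the enzyme family that makes glycerol from glycolytic carbon, had 379.7, 398 and 626 scaled CPM at 16 h, against 1553, 1463 and 1411 scaled CPM at 0 h, and fell by 1.66 log2 units (SE 0.41, adjusted p = 0.00541).

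Alcohol dehydrogenases, which interconvert aldehydes and alcohols, were listed together with sorbitol dehydrogenases, which act on sugar alcohols. This list had the highest median of the 45 lists. In the KOG annotation 7 of 9 class V alcohol dehydrogenase genes rose (median 3.87), as did 4 of 7 sorbitol dehydrogenase genes (median 1.835). Of 18 list members 12 rose (66.7%) and 1 fell (5.56%), against 22.6% and 17.8% of all genes. The median log2 fold change was 3.48, and 2.91 with library size scaling, and the largest rise was that of ADH3, at 11.22 log2 units. The list took 4.56% ± 1.03 of counts at 16 h and 3.88% ± 0.278 at 0 h (SD, n = 3 each; exact permutation test p = 0.4, two-sided). Its fallen member, ADH4, fell by 8.44 log2 units, and 2 members fell with 16 h replicate 3 left out. In the class V subfamily WICANDRAFT_56320 had 71.7, 146 and 67.4 scaled CPM at 16 h, against 5.21, 4.27 and 6.08 scaled CPM at 0 h, and rose by 4.19 log2 units (SE 0.34, adjusted p = 2.01e-06). WICANDRAFT_30689, also class V, had 7.77, 10.1 and 7.81 scaled CPM at 16 h, against 0.418, 0.409 and 0.967 scaled CPM at 0 h, and rose by 3.87 log2 units (SE 0.43, adjusted p = 1.66e-05). WICANDRAFT_31046 had 221, 133 and 109 scaled CPM at 16 h, against 7.24, 7.72 and 23.9 scaled CPM at 0 h. It rose by 3.58 log2 units (SE 0.86, adjusted p = 0.00434), and by 4.37 (adjusted p = 0.00581) without 0 h replicate 3. The sorbitol dehydrogenase gene WICANDRAFT_35934 rose by 1.83 log2 units (adjusted p = 0.00338), and a second, WICANDRAFT_86548, was nearly absent at 0 h, with 191, 418 and 311 counts at 16 h, against 0, 2 and 5 counts at 0 h. The members that did not pass included abundant ones. WICANDRAFT_62195, class V, had 60091, 13643 and 48209 scaled CPM at 16 h, against 22574, 17844 and 36030.0 scaled CPM at 0 h (0.67, adjusted p = 0.544), and WICANDRAFT_52965 had 7429.5, 1818 and 3221 scaled CPM at 16 h, against 8668, 6931 and 18005 scaled CPM at 0 h (-1.43, adjusted p = 0.259).

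Of the aldehyde dehydrogenases, which oxidise aldehydes to acids, 46.7% rose and 20% fell, against 22.6% and 17.8% of all genes. Of 15 genes 7 rose and 3 fell (median log2 fold change 0.78, and 0.18 with library size scaling), and 4 rose without 0 h replicate 2. With library size scaling 2 rose and 3 fell. Leaving out 0 h replicate 3, 16 h replicate 1 or 16 h replicate 3 left 1 fallen member. WICANDRAFT_95589 had 2072, 1035 and 2251 scaled CPM at 16 h, against 113, 113 and 111 scaled CPM at 0 h, and rose by 3.99 log2 units (SE 0.69, adjusted p = 0.000430). WICANDRAFT_84452 had 74.5, 110.3 and 33.1 scaled CPM at 16 h, against 7.88, 5.04 and 12.7 scaled CPM at 0 h, and rose by 3.09 log2 units (SE 0.48, adjusted p = 0.000191). Against these stood WICANDRAFT_80365, with 75.6, 81.8 and 96.8 scaled CPM at 16 h, against 565, 529 and 599 scaled CPM at 0 h, which fell by 2.73 log2 units (SE 0.48, adjusted p = 0.000459). For each of these 3 genes the 16 h and 0 h values did not overlap, as for 90.4% of risen and 96.9% of fallen genes. ALD5 had 144, 217 and 74.8 scaled CPM at 16 h, against 196, 129.9 and 225 scaled CPM at 0 h, and did not pass (-0.34, adjusted p = 0.773).

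Ester formation was represented by few named genes. Of 12 genes that form or cleave esters, or belong to the alpha/beta hydrolase family that includes such enzymes, 6 rose (50%) and 0 fell. Over all genes 22.6% rose and 17.8% fell. The median log2 fold change was 0.76, and 0.07 with library size scaling. The hydrolase gene WICANDRAFT_27004 had 137, 165 and 141 scaled CPM at 16 h, against 17.8, 22.8 and 10.9 scaled CPM at 0 h, and rose by 3.10 log2 units (SE 0.72, adjusted p = 0.00324). SLI1, an acetyltransferase gene, had 102, 115 and 83.8 scaled CPM at 16 h, against 33.9, 26.4 and 45.2 scaled CPM at 0 h, and rose by 1.51 log2 units (SE 0.38, adjusted p = 0.00527). IAH1, which hydrolyses isoamyl acetate, had 10.3, 15.5 and 11.1 scaled CPM at 16 h, against 12.7, 12.3 and 25.1 scaled CPM at 0 h, and did not pass (-0.44, adjusted p = 0.313). In the Ehrlich pathway, which turns amino acids into fusel alcohols, 1 of 5 genes rose (20%, near the share of all genes) and 0 fell. The median log2 fold change was -0.18, and -0.88 with library size scaling. The aromatic aminotransferase gene ARO9 had 62.4, 8.39 and 129 scaled CPM at 16 h, against 3.82, 4.09 and 2.22 scaled CPM at 0 h, so that it was high in 16 h replicates 1 and 3 and close to 0 h in replicate 2. It rose by 4.29 log2 units (SE 0.72, adjusted p = 0.000344), and by 3.38 (adjusted p = 0.00115) without 16 h replicate 3. ARO8, BAT1 and the decarboxylase gene ARO10 did not pass, with -0.59, -0.83 and 0.58 on the log2 scale (adjusted p = 0.386, 0.204 and 0.279).

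**Figure D3:**
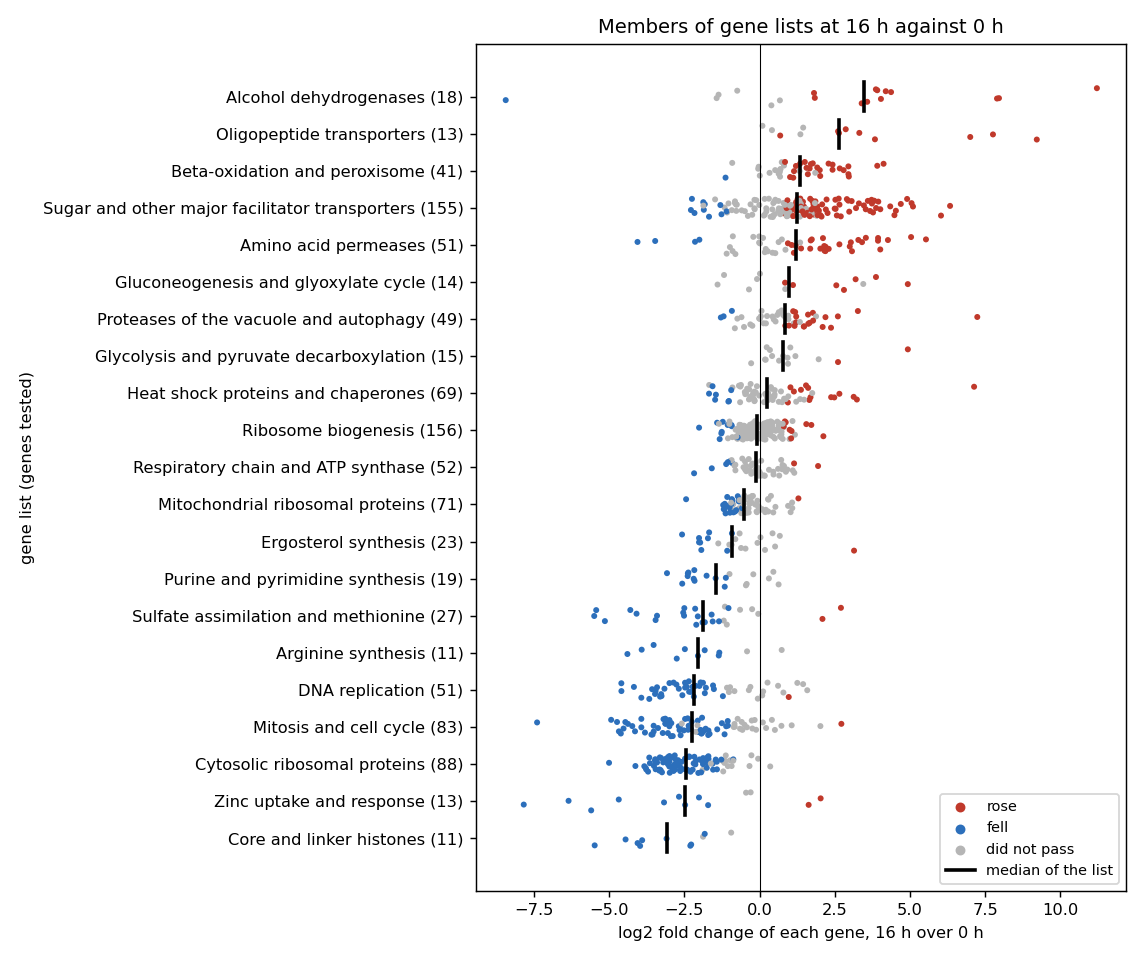
Log2 fold change of 16 h over 0 h for every tested gene of 21 lists, ordered by the list median (black bar), with the number of genes in brackets. Alcohol dehydrogenases and oligopeptide transporters lie furthest to the right, with medians of 3.48 and 2.64, and histones furthest to the left, with a median of -3.10.

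Many transporter genes for peptides and amino acids rose. Of 13 oligopeptide transporters, which import short peptides, 9 rose and 0 fell (median log2 fold change 2.64, and 2.06 with library size scaling), and of 51 amino acid permeases 28 rose and 4 fell (median log2 fold change 1.20, and 0.54 with library size scaling). The risen shares were 69.2% and 54.9%, and the permease fallen share 7.84%, against 22.6% risen and 17.8% fallen over all genes. A proton/oligopeptide symporter gene (WICANDRAFT_83892) had 46634, 15294 and 36688 scaled CPM at 16 h, against 318, 220.2 and 230.1 scaled CPM at 0 h. It rose by 7.0 log2 units (SE 0.81, adjusted p = 2.05e-05), which is 128-fold, and alone took 1.82%, 0.97% and 2.34% of all counts at 16 h. A second symporter gene, WICANDRAFT_78490, had 33.6, 68.5 and 18.5 scaled CPM at 16 h, against 2.45, 2.50 and 3.50 scaled CPM at 0 h. It rose by 3.83 log2 units (SE 0.40, adjusted p = 1.13e-05), and by 3.21 (adjusted p = 5.10e-06) without 16 h replicate 2. The oligopeptide list as a whole took 2.28%, 1.58% and 3.21% of counts at 16 h, against 0.109%, 0.121% and 0.0657% at 0 h (exact permutation test p = 0.1, two-sided). An ammonia permease gene (WICANDRAFT_98145) had 964, 740.0 and 537 scaled CPM at 16 h, against 8.66, 7.31 and 6.36 scaled CPM at 0 h, and rose by 6.65 log2 units (SE 0.60, adjusted p = 3.84e-06), or 100.3-fold.

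Amino acid permeases differed between the 16 h libraries. WICANDRAFT_30075 had 288, 18.7 and 299 scaled CPM at 16 h, against 4.10, 3.88 and 5.12 scaled CPM at 0 h, and rose by 5.53 log2 units (SE 1.06, adjusted p = 0.000914). WICANDRAFT_84255 had 163, 11 and 202 scaled CPM at 16 h, against 5.27, 5.91 and 8.38 scaled CPM at 0 h, and rose by 4.27 log2 units (SE 0.74, adjusted p = 0.000439). Both were lowest in replicate 2, as was the list: the median of its members lay -1.07 log2 units from the other 16 h libraries in 16 h replicate 2, against 0.04 over all genes. WICANDRAFT_24902 went the other way, with 80.9, 240.3 and 50.4 scaled CPM at 16 h, against 3.20, 3.18 and 4.95 scaled CPM at 0 h. It rose by 5.04 log2 units (SE 0.56, adjusted p = 1.66e-05), and by 4.12 (adjusted p = 5.58e-06) without replicate 2. WICANDRAFT_36177 was the largest fall, with 33.2, 10.5 and 47.3 scaled CPM at 16 h, against 602, 471 and 448 scaled CPM at 0 h (-4.06, adjusted p = 2.09e-05). The summed share of the list was 0.399% ± 0.145 at 16 h and 0.333% ± 0.0859 at 0 h (SD, n = 3 each; exact permutation test p = 0.6, two-sided). Its most abundant member over both times, WICANDRAFT_48765, did not pass (915 ± 620.4 scaled CPM at 16 h, against 812 ± 170.3 scaled CPM at 0 h; 0.17, adjusted p = 0.857). Without 16 h replicate 2, 30 permeases rose and 6 fell.

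An amine oxidase gene and a permease gene whose annotation gives no single substrate were also among the largest rises. A copper amine oxidase gene (WICANDRAFT_97685), of a family that releases ammonium from amines, had 1348, 315 and 1931 scaled CPM at 16 h, against 14.3, 10.1 and 14.5 scaled CPM at 0 h, and rose by 6.53 log2 units (SE 0.81, adjusted p = 3.36e-05). A permease gene of the family that carries uridine, thiamine and allantoin (WICANDRAFT_85484) had 484, 82.4 and 223 scaled CPM at 16 h, against 3.43, 2.75 and 5.48 scaled CPM at 0 h. It rose by 6.08 log2 units (SE 0.65, adjusted p = 1.31e-05), and by 5.30 (adjusted p = 3.14e-05) without 16 h replicate 1. NPR1, a kinase that keeps nitrogen permeases active in S. cerevisiae and was singled out after its values were seen, had 142, 145 and 126 scaled CPM at 16 h, against 13.7, 12.3 and 12 scaled CPM at 0 h, and rose by 3.44 log2 units (SE 0.44, adjusted p = 4.56e-05). In the GO annotation 14 of 24 genes for ammonium transporter activity rose, 12 of 17 for polyamine transporters and 10 of 16 for neutral amino acid transporters, terms that share members with the permease list. They ranked 12, 1 and 6 of 2461 terms by share risen (22.6% over all genes) and were named for that.

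Vacuolar proteases, aspartyl proteases and autophagy genes, listed together, held more risen than fallen genes (40.8% and 6.12%, against 22.6% and 17.8% of all genes). Of 49 members 20 rose and 3 fell (median log2 fold change 0.85, and 0.21 with library size scaling), and 8 rose and 4 fell with library size scaling. The fallen numbered 0 when either 0 h replicate 1 or 0 h replicate 2 was left out, and 1 when 16 h replicate 2 was. An aspartyl protease gene (WICANDRAFT_14182) had 4134, 1809.7 and 2026 scaled CPM at 16 h, against 15.5, 12.3 and 25.1 scaled CPM at 0 h, and rose by 7.24 log2 units (SE 1.18, adjusted p = 0.000275). Its KOG description does not place it in the vacuole. ATG42, a vacuolar carboxypeptidase, had 1198, 1774 and 1323 scaled CPM at 16 h, against 209, 147 and 351 scaled CPM at 0 h, and rose by 2.60 log2 units (SE 0.68, adjusted p = 0.00737). APE4, an aminopeptidase delivered to the vacuole, had 145, 73.7 and 172 scaled CPM at 16 h, against 25.3, 22.6 and 27.5 scaled CPM at 0 h, and rose by 2.37 log2 units (SE 0.53, adjusted p = 0.00268). The 3 genes were higher in every 16 h library than in any 0 h library, as were 90.4% of all risen genes. Of 29 genes with the GO term exopeptidase activity 16 rose and 0 fell, and of 16 in the vacuole lumen 9 rose and 0 fell. Both terms were named for their rank by share risen, 22 and 19 of 2461 terms (22.6% over all genes). The list took 0.813% ± 0.129 of counts at 16 h, against 0.395% ± 0.00146 at 0 h (SD, n = 3 each; exact permutation test p = 0.1, two-sided).

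Most genes of fatty acid breakdown and peroxisome assembly rose. Beta-oxidation, which in yeast runs in peroxisomes, cuts fatty acids to acetyl-CoA. Of 41 genes of this pathway and of peroxisome assembly 25 rose and 1 fell (median log2 fold change 1.34, and 0.64 with library size scaling), and 13 rose with library size scaling. The fallen numbered 0 with any of 0 h replicate 1, 0 h replicate 2 and 16 h replicate 1 left out. POX1, the acyl-CoA oxidase of the first step, had 323, 54.2 and 263 scaled CPM at 16 h, against 25.7, 20.6 and 35.6 scaled CPM at 0 h, and rose by 2.97 log2 units (SE 0.61, adjusted p = 0.00152). SPS19, a dienoyl-CoA reductase for unsaturated fatty acids, had 42.5, 157 and 38.2 scaled CPM at 16 h, against 10.7, 7.61 and 12.4 scaled CPM at 0 h. It rose by 2.95 log2 units (SE 0.50, adjusted p = 0.000344), and by 1.98 (adjusted p = 0.000319) without 16 h replicate 2. PEX11, which divides peroxisomes and was chosen after its values were seen, had 12.5, 60.7 and 14.2 scaled CPM at 16 h, against 3.62, 3.54 and 5.44 scaled CPM at 0 h. It rose by 2.79 log2 units (SE 0.54, adjusted p = 0.000961), and by 1.67 (adjusted p = 0.00184) without 16 h replicate 2. An enoyl-CoA isomerase gene (WICANDRAFT_70060) rose by 3.89 log2 units (adjusted p = 1.66e-05). In the KEGG map of the peroxisome 29 of 49 genes rose and 2 fell, and in fatty acid degradation 17 of 32 rose and 5 fell. The risen shares were 61% for the list and 59.2% and 53.1% for the maps, against 22.6% of all genes. The maps overlap this list and were not kept apart from the other lists, so they are not separate evidence.

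Of the ergosterol synthesis genes 39.1% fell and 4.35% rose, against 17.8% and 22.6% of all genes. For fatty acid synthesis the fallen share, 18.2%, was near that of all genes. Of 11 genes of fatty acid synthesis and desaturation 0 rose and 2 fell (median log2 fold change -0.86, and -1.53 with library size scaling; 1 fell with any of 0 h replicate 3, 16 h replicate 2 and 16 h replicate 3 left out), and the desaturase gene OLE1, the most abundant, did not pass (0.02, adjusted p = 0.978). ELO2, an elongase for very long chains, had 9.89, 5.68 and 5.29 scaled CPM at 16 h, against 52.6, 43.2 and 83.5 scaled CPM at 0 h, and fell by 3.11 log2 units (SE 0.44, adjusted p = 9.76e-05). Of 23 ergosterol genes 9 fell and 1 rose (median log2 fold change -0.92, and -1.61 with library size scaling), with 5 fallen without 0 h replicate 3. The risen numbered 0 with any of 0 h replicate 1, 0 h replicate 2 and 16 h replicate 2 left out. HMG1, the reductase that commits carbon to sterols, had 25.5, 14.9 and 27.3 scaled CPM at 16 h, against 109, 98.2 and 66.5 scaled CPM at 0 h, and fell by 2.02 log2 units (SE 0.45, adjusted p = 0.00249). ERG6, a late methyltransferase, had 13.3, 5.16 and 21.9 scaled CPM at 16 h, against 86.6, 84.7 and 70.7 scaled CPM at 0 h, and fell by 2.58 log2 units (SE 0.54, adjusted p = 0.00173). The list took 0.239% ± 0.034 of counts at 16 h, against 0.526% ± 0.026 at 0 h (SD, n = 3 each; exact permutation test p = 0.1, two-sided).

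In most routes of amino acid synthesis more genes fell than rose, while over all genes 17.8% fell and 22.6% rose. Of 11 arginine genes 9 fell and 0 rose (median log2 fold change -2.05, and -2.75 with library size scaling), of 7 histidine genes 5 fell and 1 rose (median log2 fold change -1.36, and -2.07 with library size scaling), and of 6 lysine genes 4 fell and 1 rose (median log2 fold change -1.58, and -2.34 with library size scaling; 0 rose with 16 h replicate 2 left out). ARG1, argininosuccinate synthase, had 319, 32.5 and 135 scaled CPM at 16 h, against 1022, 968 and 1295 scaled CPM at 0 h. It fell by 2.76 log2 units (SE 0.60, adjusted p = 0.00233), and the change was -3.71 (adjusted p = 0.000534) without 16 h replicate 1. LYS9, of the last steps to lysine, had 68.7, 57.4 and 67.4 scaled CPM at 16 h, against 509.5, 559 and 825 scaled CPM at 0 h, and fell by 3.29 log2 units (SE 0.35, adjusted p = 1.13e-05). HIS1, the first enzyme of histidine synthesis, had 7.77, 8.45 and 10.8 scaled CPM at 16 h, against 62.2, 78.9 and 61.4 scaled CPM at 0 h, and fell by 2.90 log2 units (SE 0.44, adjusted p = 0.000154), and HIS7 fell by 2.54 log2 units (adjusted p = 1.77e-05). In every one of these 4 genes the 16 h values lay below all 0 h values, as in 96.9% of all fallen genes.

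Most genes of the sulfur and threonine-methionine branch fell (70.4%, against 17.8% of all genes). Of 27 genes of sulfate assimilation and methionine 19 fell and 2 rose (median log2 fold change -1.90, and -2.65 with library size scaling). HOM3, aspartate kinase, which opens the branch to threonine and methionine, had 3.52, 2.71 and 3.46 scaled CPM at 16 h, against 108, 126 and 109.7 scaled CPM at 0 h, and fell by 5.15 log2 units (SE 0.38, adjusted p = 9.29e-07). MET10, a sulfite reductase subunit, had 11.4, 15.4 and 12.8 scaled CPM at 16 h, against 287, 314 and 181 scaled CPM at 0 h, and fell by 4.30 log2 units (SE 0.76, adjusted p = 0.000502), next to MET3 and MET14, earlier steps of sulfate activation, with -5.44 and -5.50. The most abundant member, SAH1, did not pass (853 ± 803 scaled CPM at 16 h, against 1340.5 ± 343 scaled CPM at 0 h; -0.65, adjusted p = 0.605). Branched-chain and aromatic synthesis held fewer fallen genes, at 11.1% and 36.4%. Of 9 branched-chain genes 1 fell and 0 rose (median log2 fold change -0.30, and -1.04 with library size scaling). The fallen numbered 0 with the replicate block, or with any of 0 h replicate 3, 16 h replicates 1 and 2, 32 h replicates 1 and 2 and the 48 h libraries left out, and 2 with 16 h replicate 3 left out. ILV5, a member of this list, did not pass (-0.13, adjusted p = 0.921). Of 11 aromatic genes 4 fell and 1 rose (median log2 fold change -0.45, and -1.09 with library size scaling; 2 rose with 16 h replicate 3 left out), with ARO2, chorismate synthase, at 28.4, 45.2 and 28.2 scaled CPM at 16 h, against 126, 136 and 153 scaled CPM at 0 h (-2.03, adjusted p = 6.92e-05).

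Most genes of nucleotide synthesis fell (63.2%, against 17.8% of all genes), and among the named genes CDD1 and PNC1, which act in salvage, rose. Of 19 purine and pyrimidine genes 12 fell and 0 rose (median log2 fold change -1.46, and -2.07 with library size scaling; 1 rose with 0 h replicate 3 left out), and the list took 0.103%, 0.0911% and 0.151% of counts at 16 h, against 0.572%, 0.647% and 0.342% at 0 h (exact permutation test p = 0.1, two-sided). ADE1 had 36.7, 21.2 and 23.3 scaled CPM at 16 h, against 165, 188 and 334 scaled CPM at 0 h, and fell by 3.08 log2 units (SE 0.52, adjusted p = 0.000339). ADE57, which carries out a pair of steps of the purine ring, had 29.2, 27 and 47.6 scaled CPM at 16 h, against 192, 235 and 116 scaled CPM at 0 h, and fell by 2.39 log2 units (SE 0.35, adjusted p = 0.000126). The IMP dehydrogenase gene WICANDRAFT_88480, the most abundant, did not pass (-1.0, adjusted p = 0.155). CDD1, a cytidine deaminase of pyrimidine salvage, had 7.47, 40.1 and 7.04 scaled CPM at 16 h, against 0.724, 0.522 and 0.765 scaled CPM at 0 h. It rose by 4.76 log2 units (SE 0.63, adjusted p = 5.80e-05), and by 3.44 (adjusted p = 9.20e-06) without 16 h replicate 2. PNC1, a nicotinamidase of NAD salvage, had 527, 299 and 346 scaled CPM at 16 h, against 17.9, 17 and 27.3 scaled CPM at 0 h, and rose by 4.24 log2 units (SE 0.70, adjusted p = 0.000303).

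Most zinc genes fell. Of 13 zinc genes 9 fell and 2 rose (median log2 fold change -2.48, and -3.13 with library size scaling), and their share was 0.0297%, 0.0757% and 0.0442% of counts at 16 h, against 1.79%, 1.53% and 1.59% at 0 h. ZPS1, a secreted protein made under zinc limitation, had 99.9, 121 and 79.1 scaled CPM at 16 h, against 4622, 3505 and 6426 scaled CPM at 0 h, and fell by 5.60 log2 units (SE 0.68, adjusted p = 2.85e-05). ZRT2, a low-affinity zinc transporter, had 78.2, 325 and 109 scaled CPM at 16 h, against 4309, 3134 and 5732 scaled CPM at 0 h. It fell by 4.68 log2 units (SE 0.62, adjusted p = 5.90e-05), and the change was -5.55 (adjusted p = 1.97e-05) without 16 h replicate 2. The regulator ZAP1, which switches on zinc uptake genes in S. cerevisiae and was chosen after its values were seen, had 14.2, 32.1 and 16.9 scaled CPM at 16 h, against 111, 141 and 100.3 scaled CPM at 0 h, and fell by 2.48 log2 units (SE 0.33, adjusted p = 6.50e-05). WICANDRAFT_81538, annotated as a cobalamin synthesis protein, a family with metal chaperones, had 8.13, 7.42 and 12.2 scaled CPM at 16 h, against 446, 327.8 and 324 scaled CPM at 0 h, and fell by 5.30 log2 units (SE 0.33, adjusted p = 4.43e-07). Of 27 iron genes 5 rose and 6 fell (median log2 fold change -0.01, and -0.60 with library size scaling). These are 18.5% and 22.2%, near the 22.6% and 17.8% of all genes. Among the fallen was ARN1, a siderophore transporter, with 10.4, 9.16 and 7.85 scaled CPM at 16 h, against 185, 149 and 164 scaled CPM at 0 h (-4.18, adjusted p = 2.01e-06).

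Of 10 genes for thiamine, vitamin B6 and biotin 4 fell and 1 rose (median log2 fold change -1.18, and -1.89 with library size scaling). Fallen and risen shares of 40% and 10% stood against 17.8% and 22.6% of all genes. TPN1, a vitamin B6 transporter, had 11.7, 25 and 13.4 scaled CPM at 16 h, against 789, 803 and 654 scaled CPM at 0 h, and fell by 5.49 log2 units (SE 0.55, adjusted p = 8.11e-06). BIO4, of biotin synthesis, had 79, 45.4 and 57.3 scaled CPM at 16 h, against 403, 338 and 587 scaled CPM at 0 h, and fell by 2.87 log2 units (SE 0.50, adjusted p = 0.000430), and THI7, a thiamine transporter, fell by 1.97 log2 units (adjusted p = 0.00157). BUD16, a putative pyridoxal kinase that salvages vitamin B6, had 77.2, 220.1 and 133 scaled CPM at 16 h, against 23, 24.5 and 39.6 scaled CPM at 0 h, and rose by 2.31 log2 units (SE 0.50, adjusted p = 0.00228). THI4, of thiamine synthesis and the most abundant of the list, did not pass (0.77, adjusted p = 0.421). The list took 7.47%, 6.43% and 6.15% of counts at 16 h, against 6.01%, 6.02% and 9.03% at 0 h (exact permutation test p = 1, two-sided).

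Most genes of cytosolic ribosomal proteins fell (83%, against 17.8% of all genes). Of 88 cytosolic ribosomal protein genes 73 fell and 0 rose (median log2 fold change -2.44, and -3.02 with library size scaling), and they took 0.950%, 0.826% and 0.790% of counts at 16 h, against 4.42%, 5.15% and 6.30% at 0 h. RPL35A had 72.1, 32.1 and 53.3 scaled CPM at 16 h, against 477, 579.6 and 1190.1 scaled CPM at 0 h, and fell by 3.84 log2 units (SE 0.57, adjusted p = 0.000129). WICANDRAFT_36077, annotated as ribosomal protein L27, had 27.8, 2.13 and 35.4 scaled CPM at 16 h, against 277, 359 and 269 scaled CPM at 0 h, and fell by 3.79 log2 units (SE 0.92, adjusted p = 0.00460). In the median of the list, 0 h replicate 3 lay 1.14 log2 units from the other 0 h libraries and 16 h replicate 2 lay -0.65 from the other 16 h libraries. Leaving out 0 h replicate 3 gave 59 fallen members, leaving out 16 h replicate 2 gave 66, and leaving out both gave 54. ASC1, a protein bound to the small subunit and the most abundant of the list, did not pass (-0.27, adjusted p = 0.770).

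Few ribosome assembly genes passed, with 5.77% risen and 6.41% fallen, against 22.6% and 17.8% of all genes. Of 156 ribosome biogenesis genes 9 rose and 10 fell (median log2 fold change -0.08, and -0.81 with library size scaling), and 33 fell with library size scaling. The risen were 3 when 16 h replicate 2 was left out, 4 when any of 0 h replicate 1, 0 h replicate 3 and 48 h replicate 3 was, and 5 when 0 h replicate 2 was. The fallen were 16 when 0 h replicate 3 was left out. RSA1, an assembly factor of the large subunit, had 25.4, 53.3 and 23.8 scaled CPM at 16 h, against 11.5, 7.47 and 12.1 scaled CPM at 0 h, and rose by 1.72 log2 units (SE 0.40, adjusted p = 0.00354), while WICANDRAFT_80089, annotated as a nucleolar growth protein, had 4.32, 2.97 and 2.85 scaled CPM at 16 h, against 13.2, 15.1 and 12.6 scaled CPM at 0 h, and fell by 2.01 log2 units (SE 0.39, adjusted p = 0.00103). Among 43 translation factors 15 fell and 1 rose (median log2 fold change -0.78, and -1.50 with library size scaling), and 9 fell without 0 h replicate 2, while 0 rose with 16 h replicate 2 left out. TIF11, initiation factor eIF1A, had 39.9, 44.1 and 50.7 scaled CPM at 16 h, against 126, 132 and 222 scaled CPM at 0 h, and fell by 1.83 log2 units (SE 0.36, adjusted p = 0.00113). The elongation factor gene WICANDRAFT_82540, the most abundant, did not pass (-0.03, adjusted p = 0.961). Of 35 aminoacyl-tRNA synthetases, which charge tRNAs, 12 fell and 4 rose (median log2 fold change -0.61, and -1.24 with library size scaling), with KRS1 at 34.8, 26.1 and 42.3 scaled CPM at 16 h, against 140.4, 199.9 and 118 scaled CPM at 0 h (-2.15, adjusted p = 6.09e-05). The 4 risen genes, named after their values were seen, were MST1, ISM1, MSD1 and WICANDRAFT_100555, and the first 3 encode mitochondrial enzymes in S. cerevisiae. They rose by 1.13, 1.29, 1.62 and 1.25 log2 units, and the change of MSD1 was 0.96 (adjusted p = 0.0708) with both 16 h replicate 2 and 0 h replicate 3 left out. Fallen shares were 34.9% for translation factors, 34.3% for synthetases and 28.2% for mitochondrial ribosomal proteins, against 17.8% of all genes. Of 71 mitochondrial ribosomal proteins 20 fell and 1 rose (median log2 fold change -0.51, and -1.21 with library size scaling). The fallen were 9 when 0 h replicate 2 was left out, 11 when either 0 h replicate 1 or 16 h replicate 1 was, and 13 when either 16 h replicate 2 or 48 h replicate 3 was. The risen were 5 with 0 h replicate 3 left out, 4 with 16 h replicate 3 left out, 2 with 64 h replicate 3 left out, and 0 with any of 0 h replicate 1, 0 h replicate 2 and 16 h replicate 1 left out.

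Most genes of chromosome duplication and division fell, against 17.8% of all genes. Of 51 DNA replication genes 35 fell and 1 rose (median log2 fold change -2.19, and -2.87 with library size scaling), of 11 histone genes 9 fell and 0 rose (median log2 fold change -3.10, and -3.83 with library size scaling), and of 83 genes of mitosis and the cell cycle 59 fell and 1 rose (median log2 fold change -2.26, and -2.97 with library size scaling). Without both 16 h replicate 2 and 0 h replicate 3 the fallen members numbered 38, 7 and 64. With single libraries left out the risen reached 3 in replication and 2 in mitosis. In replication, MCM2, a subunit of the helicase that opens origins, had 0.147, 0.129 and 0.651 scaled CPM at 16 h, against 6.05, 9.29 and 3.02 scaled CPM at 0 h. It fell by 4.18 log2 units (SE 0.74, adjusted p = 0.000485), and the change was -5.43 (adjusted p = 0.000468) without 16 h replicate 3. DBF4, the activator of the kinase that fires origins, had 0.660, 0.129 and 1.18 scaled CPM at 16 h, against 18.2, 15.3 and 16.2 scaled CPM at 0 h. It fell by 4.60 log2 units (SE 0.61, adjusted p = 5.80e-05), and the change was -5.41 (adjusted p = 0.000105) without 16 h replicate 3. RAD27, the nuclease that trims Okazaki fragments and was chosen after its values were seen, had 1.47, 1.74 and 1.71 scaled CPM at 16 h, against 23.2, 20 and 19.7 scaled CPM at 0 h, and fell by 3.67 log2 units (SE 0.43, adjusted p = 2.40e-05). The risen member, a ribonucleotide reductase gene (WICANDRAFT_81706), was also chosen after its values were seen and had 48.7, 61.4 and 63.4 scaled CPM at 16 h, against 36.3, 35 and 17.4 scaled CPM at 0 h (0.97, adjusted p = 0.0140). Its change was 0.66 (adjusted p = 0.0506) with both 16 h replicate 2 and 0 h replicate 3 left out. WICANDRAFT_92205, with the same annotation, fell, with 113, 63.1 and 95.5 scaled CPM at 16 h, against 339.9, 294 and 327 scaled CPM at 0 h (-1.82, adjusted p = 0.00585).

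Histones package the new DNA, and the variant HTZ1, which replaces H2A at promoters, had 4.98, 0.323 and 4.43 scaled CPM at 16 h, against 104, 97.2 and 237 scaled CPM at 0 h. It fell by 5.49 log2 units (SE 0.76, adjusted p = 7.89e-05). HTA2, histone H2A, had 277, 106 and 192 scaled CPM at 16 h, against 2140.0, 1612 and 5286 scaled CPM at 0 h. It fell by 3.98 log2 units (SE 0.51, adjusted p = 4.64e-05), and the change was -3.29 (adjusted p = 9.02e-05) without 0 h replicate 3, in which the histone list stood 1.38 log2 units above its mates in the median. The list took 0.223%, 0.159% and 0.227% of counts at 16 h, against 1.56%, 1.53% and 2.63% at 0 h.

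In mitosis, TUB2, beta-tubulin of the spindle, had 14.1, 3.42 and 16.5 scaled CPM at 16 h, against 279.7, 245 and 311 scaled CPM at 0 h, and fell by 4.62 log2 units (SE 0.83, adjusted p = 0.000540). IPL1, the Aurora kinase that corrects spindle attachment, had 0.440, 0.645 and 0.244 scaled CPM at 16 h, against 11.3, 11.2 and 7.61 scaled CPM at 0 h, and fell by 4.53 log2 units (SE 0.53, adjusted p = 2.14e-05). YCG1, a condensin subunit, had 0.366, 1.42 and 0.732 scaled CPM at 16 h, against 21.1, 30 and 13.9 scaled CPM at 0 h, and fell by 4.68 log2 units (SE 0.47, adjusted p = 8.11e-06), and the septin gene CDC3 had 2.49, 1.74 and 3.99 scaled CPM at 16 h, against 41.8, 42.8 and 32.1 scaled CPM at 0 h, and fell by 3.81 log2 units (SE 0.45, adjusted p = 2.40e-05). NUF2, of the outer kinetochore, was at the limit of detection, with 0, 0 and 1 counts at 16 h, against 162, 230 and 41 counts at 0 h. The member that rose, CDH1, an activator of the anaphase-promoting complex that holds cells in G1, was chosen after its values were seen and had 84.9, 298 and 73.3 scaled CPM at 16 h, against 23.4, 26.5 and 19.4 scaled CPM at 0 h. It rose by 2.72 log2 units (SE 0.70, adjusted p = 0.00662), and by 1.77 (adjusted p = 0.0384) without 16 h replicate 2. The call ended with both that library and 0 h replicate 3 left out, at 1.66 (adjusted p = 0.1). Among GO terms, 20 of 22 genes for congression at the metaphase plate fell, 16 of 18 for microtubule attachment to kinetochores and 13 of 16 of the spindle microtubule, with 0 risen in each. These terms ranked 1, 2 and 9 of 2461 by share fallen (17.8% over all genes) and were named for that. In the KOG annotation 5 of 6 cyclin B genes and 4 of 6 kinesins fell.

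**Figure D4:**
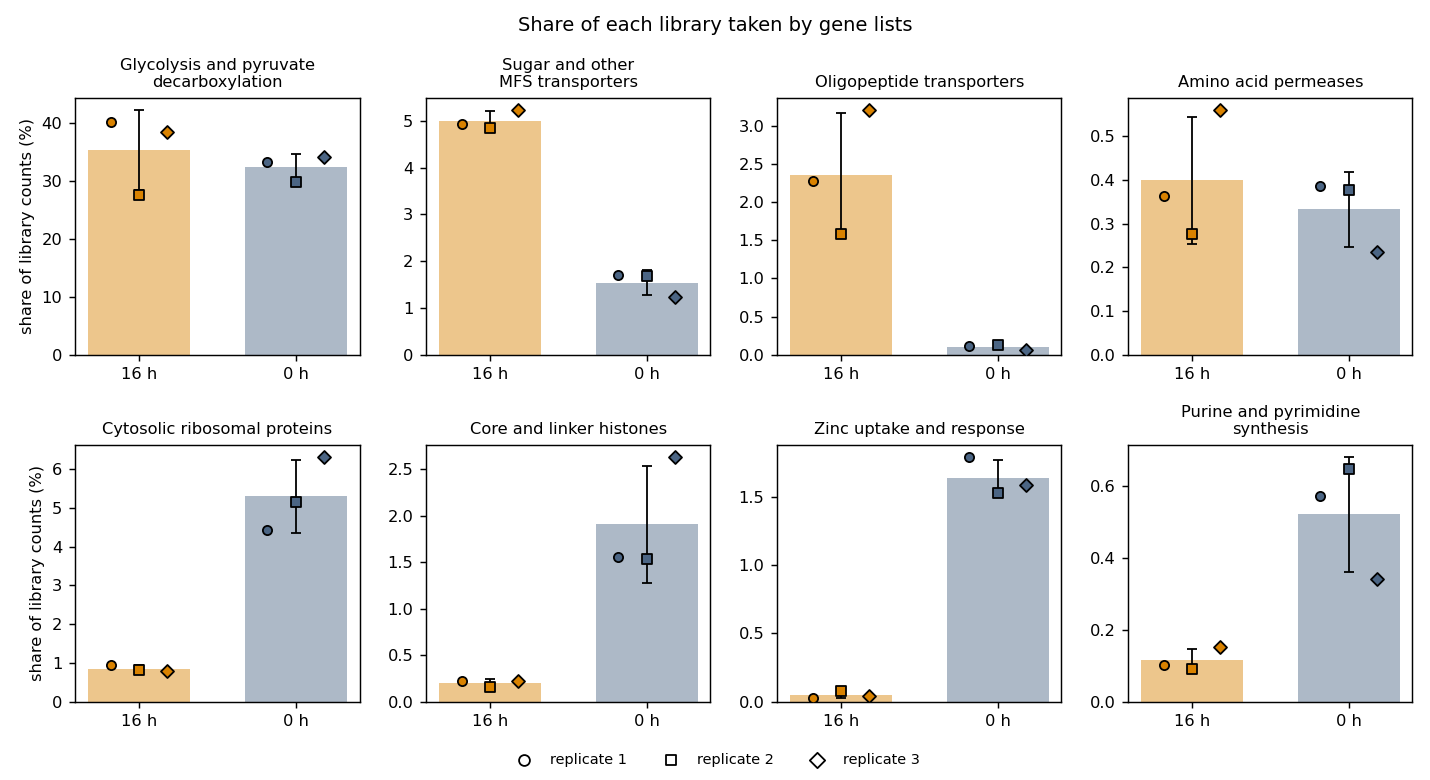
Share of library counts (vertical axes, %) taken by 8 gene lists at 16 h (left bars) and 0 h (right bars), with bars at the mean of 3 libraries, error bars of 1 SD and a marker for each replicate. Glycolysis overlaps between the times, while ribosomal proteins, histones and zinc genes lie lower in every 16 h library and oligopeptide transporters higher.

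Of the chaperone genes 20.3% rose and 10.1% fell, and of the oxidative defence genes 18.2% and 24.2%, against 22.6% and 17.8% of all genes. The chaperone list took 2.56%, 4.53% and 2.23% of counts at 16 h, against 1.71%, 1.78% and 1.69% at 0 h. The oxidative defence list took 0.542%, 0.819% and 0.569% at 16 h, against 0.889%, 0.927% and 0.999% at 0 h (exact permutation test p = 0.1 for each, two-sided). Of 69 heat shock proteins and chaperones 14 rose and 7 fell (median log2 fold change 0.24, and -0.42 with library size scaling), and leaving out 0 h replicate 1, 0 h replicate 2 or 16 h replicate 1 gave 7, 6 or 8 risen genes. Without both 16 h replicate 2 and 0 h replicate 3 more chaperone genes fell (11) than rose (7), as they did with library size scaling (12 fell, 5 rose). HSP26, a small heat shock protein that binds unfolded proteins, had 2071, 1142 and 1503 scaled CPM at 16 h, against 8.36, 10.6 and 14.7 scaled CPM at 0 h, and rose by 7.13 log2 units (SE 1.25, adjusted p = 0.000462). HSP31, a chaperone-like glyoxalase, had 15078, 21003 and 6329 scaled CPM at 16 h, against 1095, 984 and 2429 scaled CPM at 0 h, and rose by 3.23 log2 units (SE 0.57, adjusted p = 0.000509). Of 33 oxidative defence genes 6 rose and 8 fell (median log2 fold change -0.49, and -0.98 with library size scaling). SOD2, mitochondrial manganese superoxide dismutase, was chosen after its values were seen, with 2328, 1231 and 1541 scaled CPM at 16 h, against 172, 144 and 339 scaled CPM at 0 h (2.96, adjusted p = 0.000153). WICANDRAFT_78614, outside the list but annotated to the same enzyme family, had 15.6, 15 and 20 scaled CPM at 16 h, against 901, 738 and 1667 scaled CPM at 0 h, and fell by 6.03 log2 units (SE 0.46, adjusted p = 1.06e-06). The flavohemoglobin gene YHB1, which detoxifies nitric oxide, had 92.5, 49.8 and 101 scaled CPM at 16 h, against 1779, 1466 and 1852 scaled CPM at 0 h, and fell by 4.39 log2 units (SE 0.43, adjusted p = 6.51e-06). GTT3, related to glutathione transferases, had 0.806, 0.645 and 1.42 scaled CPM at 16 h, against 43.5, 52.9 and 35.1 scaled CPM at 0 h, and fell by 5.48 log2 units (SE 0.73, adjusted p = 5.76e-05). Of 40 proteasome genes 10 fell and 2 rose (median log2 fold change -0.49, and -1.10 with library size scaling; 1 rose with any 0 h library or 16 h replicate 2 left out), with RPN12 at 9.89, 6.65 and 7.53 scaled CPM at 16 h, against 20.4, 25.9 and 41.3 scaled CPM at 0 h and the alternative activator BLM10 at 198, 219.6 and 152 scaled CPM at 16 h, against 75.3, 74.3 and 46 scaled CPM at 0 h (-1.86 and 1.54, adjusted p = 0.000863 and 0.00114).

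Of the cell wall genes 14.3% rose and 28.6% fell, against 22.6% and 17.8% of all genes. Of 35 members 5 rose and 10 fell (median log2 fold change -0.36, and -0.99 with library size scaling), and 3 rose when either 0 h replicate 1 or 0 h replicate 2 was left out. CHS2, the chitin synthase that builds the septum between mother and daughter, had 5.06, 10.1 and 6.55 scaled CPM at 16 h, against 92.7, 87.3 and 81.5 scaled CPM at 0 h, and fell by 3.59 log2 units (SE 0.62, adjusted p = 0.000430). A chitinase gene (WICANDRAFT_16215), of the family that includes the enzyme splitting that septum, had 0.366, 0.194 and 0.488 scaled CPM at 16 h, against 14.5, 14 and 13.5 scaled CPM at 0 h, and fell by 5.27 log2 units (SE 0.49, adjusted p = 4.29e-06). TOS1, a covalently bound wall protein, had 37.9, 14.9 and 32.4 scaled CPM at 16 h, against 239, 209.8 and 329 scaled CPM at 0 h, and fell by 3.19 log2 units (SE 0.38, adjusted p = 2.69e-05). DFG5, a putative mannosidase that anchors wall proteins, had 23.6, 62.2 and 18.6 scaled CPM at 16 h, against 4.35, 4.43 and 5.44 scaled CPM at 0 h. It rose by 2.88 log2 units (SE 0.45, adjusted p = 0.000210), and by 2.15 (adjusted p = 0.000282) without 16 h replicate 2. The mannoprotein gene CCW12, the most abundant of the list, did not pass (0.58, adjusted p = 0.489). Of 5 protein O-mannosyltransferase genes in the KOG annotation 4 fell and 0 rose.

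The shares of mitochondrial carrier genes that rose (27.8%) and fell (19.4%) were near those of all genes. Of 36 mitochondrial carriers 10 rose and 7 fell (median log2 fold change -0.07, and -0.71 with library size scaling). With library size scaling 5 carriers rose and 9 fell. CTP1, the citrate carrier, had 8.94, 4.20 and 7.65 scaled CPM at 16 h, against 81.9, 92.7 and 186 scaled CPM at 0 h, and fell by 4.12 log2 units (SE 0.42, adjusted p = 9.37e-06). SFC1, which exchanges succinate for fumarate, had 32.5, 71.4 and 21.6 scaled CPM at 16 h, against 5.68, 5.13 and 8.10 scaled CPM at 0 h. It rose by 2.73 log2 units (SE 0.52, adjusted p = 0.000915), and by 2.10 (adjusted p = 0.00318) without 16 h replicate 2. A transporter gene of the multidrug resistance-associated family (WICANDRAFT_82082) was among the largest rises, with 311, 277 and 566 scaled CPM at 16 h, against 10.6, 10.9 and 6.81 scaled CPM at 0 h (5.34, adjusted p = 8.11e-06). Of 110 protein kinase genes 16 rose and 26 fell (median log2 fold change -0.18, and -0.95 with library size scaling). These are 14.5% and 23.6%, against 22.6% and 17.8% of all genes. ISR1 had 159.8, 207 and 168 scaled CPM at 16 h, against 10, 9.79 and 7.41 scaled CPM at 0 h, and rose by 4.29 log2 units (SE 0.47, adjusted p = 1.59e-05), and CDC28, the cyclin-dependent kinase of the cell cycle, was chosen after its values were seen and had 2.78, 1.03 and 2.93 scaled CPM at 16 h, against 23.9, 22.6 and 35.9 scaled CPM at 0 h (-3.60, adjusted p = 2.69e-05). Of 19 zinc-cluster transcription factor genes 4 rose and 1 fell (median log2 fold change -0.09, and -0.84 with library size scaling). These are 21.1% and 5.26%, against 22.6% and 17.8% of all genes, and with library size scaling 1 rose and 2 fell. The risen were 2 when any of 0 h replicate 2, 0 h replicate 3 and 16 h replicate 3 was left out. The fallen were 0 when any of 0 h replicate 1, 0 h replicate 2 and 16 h replicate 1 was left out. Among the risen, UGA3, an activator of GABA use, had 27.6, 62 and 43.4 scaled CPM at 16 h, against 13.4, 14.7 and 8.22 scaled CPM at 0 h (1.87, adjusted p = 0.000640). RIM4, an RNA-binding regulator of meiosis, had 453, 40.4 and 305 scaled CPM at 16 h, against 13.2, 12.7 and 7.41 scaled CPM at 0 h. It rose by 4.58 log2 units (SE 1.02, adjusted p = 0.00259), and by 3.96 (adjusted p = 0.00887) without 16 h replicate 1. HEL2, a ubiquitin ligase of ribosome quality control, rested on 16 h replicate 2 for its size, with 206, 2058 and 126 scaled CPM at 16 h, against 14.8, 15.8 and 9.95 scaled CPM at 0 h. It rose by 5.88 log2 units (SE 0.93, adjusted p = 0.000226), and by 3.62 (adjusted p = 3.87e-05) without that library.

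Levels at the later times are set beside these changes, as mean scaled CPM of 3 libraries at 0, 16, 32, 48 and 64 h. The hexokinase gene WICANDRAFT_79472 averaged 614, 18704, 713, 476 and 659. The symporter gene WICANDRAFT_83892 averaged 256, 32872, 3391, 2551 and 2438, and the ammonia permease gene WICANDRAFT_98145 averaged 7.45, 747, 123, 79.4 and 55. For these 3 genes the mean was highest at 16 h. HSP26 averaged 11.2, 1572, 18110.0, 18367 and 11477. Among the fallen genes MET3 averaged 300.5, 6.93, 17, 24 and 29.7, and HOM3 averaged 115, 3.23, 3.43, 5.08 and 5.06, both highest at 0 h. The glycolytic list took 32.4% ± 2.28 of counts at 0 h, 35.4% ± 6.84 at 16 h and 1.29% ± 0.839 at 32 h (SD, n = 3 each). No test was made on these later levels here.

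**Figure D5:**
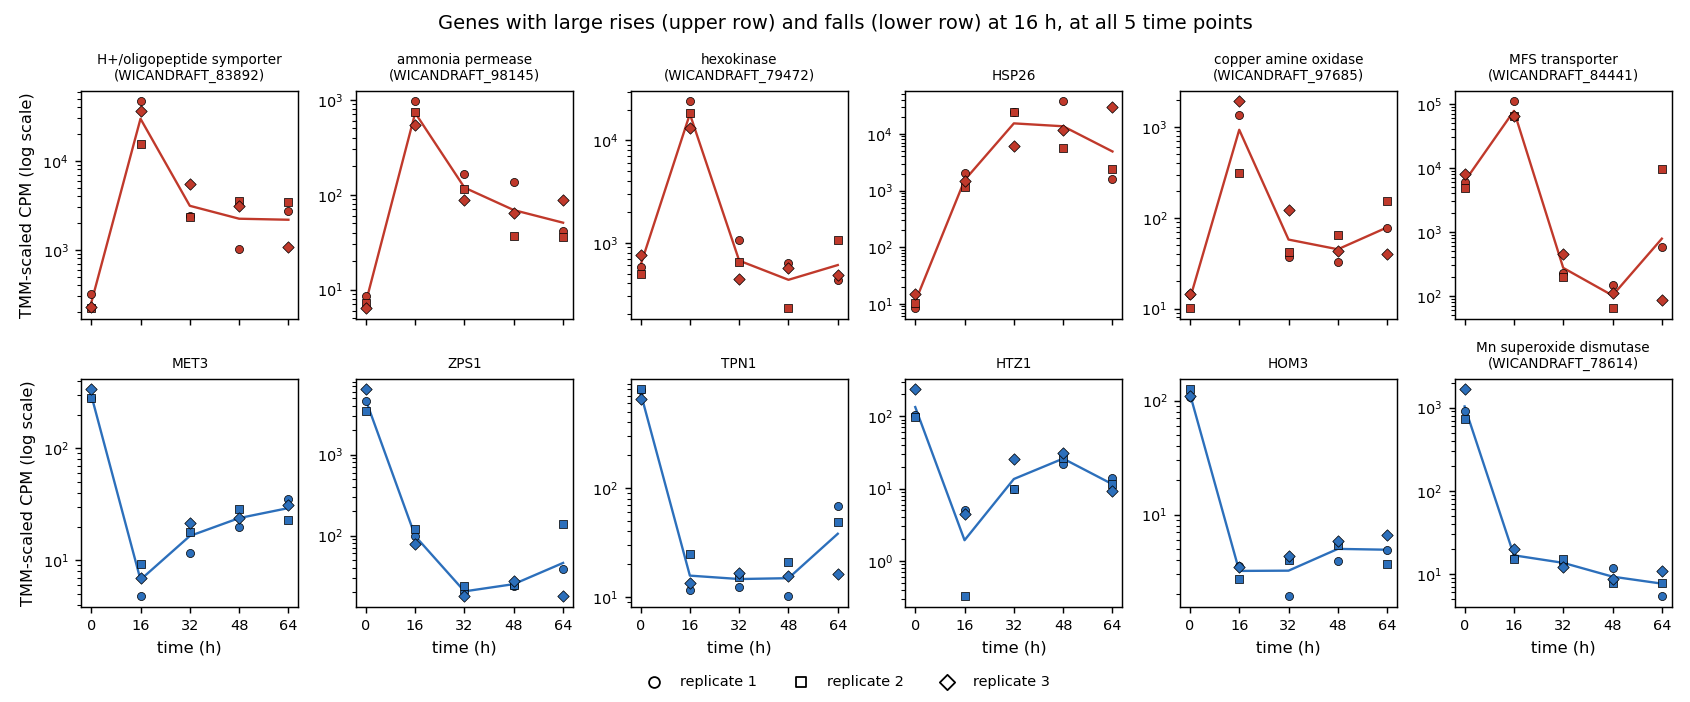
Scaled CPM (log scales) of 6 genes with large rises at 16 h (upper row) and 6 with large falls (lower row) at 0, 16, 32, 48 and 64 h, with a marker for each replicate and a line through the geometric means. The upper genes other than HSP26 are highest at 16 h, and the lower genes are highest at 0 h.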

How the data were processed

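Polyadenylated RNA of whole fermentation broth was sequenced in 15 libraries, of which the 3 from 16 h and the 3 from 0 h are compared here. The authors deposited 1 table of raw read counts per gene; fastp, HISAT2 and HTSeq are named per the submitters' processing notes, without a role or version, and no genome build is named there or in the labels. Reads were counted only on yeast genes, so apricot and other microbes in the broth do not show. Overlapping genes and near-identical paralogs could share or lose reads, and the strand setting of the counting is not given. The labels call the replicates biological, and p-values measure the spread between these samples.

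Of 6571 genes 6417 were protein coding and 154 tRNA, and 3433 carried a symbol. Symbols, gene types and gene lengths were taken from RefSeq gene records. The deposited table gave a KOG entry for 4017 genes, a KEGG entry for 2043 and a GO term for 4558. Genes passing edgeR's filterByExpr by time point (6327) were fitted with edgeR 4.0.16 in R 4.3.3, with TMM scaling and all 15 libraries in 1 quasi-likelihood model, and the contrast was 16 h over 0 h. Printed SEs are approximate, being the size of the log2 change over the root of its F statistic. A count of 3 in a library corresponds to between 0.0748 and 0.123 CPM before TMM scaling, and such limits cover counting error only. Shares of counts were compared with an exact permutation test in a family of 46 shares, in which no p can go below 0.1, so none reaches 0.05 and adjusted values cannot be lower. The fit was tested on simulated data. The simulation used a common spread and few changed genes, so it cannot speak to the choice of scaling.

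The comparison and the gene lists were chosen with earlier results of these data known. The genes named were, in each direction, the 15 with the largest change among annotated, non-overlapping genes with a mean of at least 20 scaled CPM at either time, up to 4 called genes and the most abundant gene of each list, all genes of the alcohol, aldehyde, ester and Ehrlich lists, up to 2 called genes of each KOG class and, at each time, the 10 genes with most counts. Genes outside this rule are marked where they appear. Other settings tried were DESeq2 1.42.0, limma 3.58.1 with voom, other scalings and filters, the 6 libraries alone, a minimum change of 1.5-fold, a replicate block, a gene-length offset and leaving libraries out. Some genes that this rule picks are not reported here.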

Additional observations from a re-analysis of the deposited data

How the results depend on the processing

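The numbers of genes that rose and fell stayed within 1.5 times of 1432 and 1126 under every alternative tried except library size scaling, which gave 620 risen and 1753 fallen genes. Under that scaling only 43 of 90 counts of risen or fallen list members stayed the same or within 1.5 times. Leaving out each of the 15 libraries in turn gave between 1059 and 1551 risen and between 923 and 1202 fallen genes. DESeq2 called 1560 and 1258, voom 1313 and 1151, the 6 libraries alone 1040 and 964, and the fit without both 16 h replicate 2 and 0 h replicate 3 called 1251 and 1106, of which 1081 risen and 917 fallen genes were also called with all libraries. Of 224 named genes that passed, 0 changed direction under any alternative, and 29 lost their call with library size scaling. Those given above were BLM10, RSA1, UGA3, SLI1, MST1, ISM1, MSD1, FPS1, WICANDRAFT_100555 and WICANDRAFT_81706. WICANDRAFT_27004 and WICANDRAFT_84441 lost their call in DESeq2. Without both 16 h replicate 2 and 0 h replicate 3 the call ended for UGP1, CDH1, SIP4, MSD1, FPS1, WICANDRAFT_68381, WICANDRAFT_81706 and WICANDRAFT_84441.

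The replicate numbers did not pair the samples: the deviations of same-numbered 16 h and 0 h libraries correlated at -0.001, -0.0867 and -0.389 across genes, and no library correlated best with its own number. With the replicate block 1236 genes rose and 1022 fell.

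Levels near 3 counts carry little information, and 3 libraries a time, 1 of which stood apart at each, limit the precision.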
